A study of Bos taurus with 53 samples.

Results

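The genes described here are the WNT ligands, their receptors and antagonists, and the first intracellular steps of the pathway, in bovine embryos flushed from the uterus on day 14 after fertilisation. They were taken by symbol from a table of 24596 features, and 52 features matched: 19 WNT ligands, 4 R-spondins, 13 receptors, 9 secreted antagonists and 7 genes of the intracellular pathway or of ligand secretion. FZD3, FZD8 and TCF7L2 were not analysed here. Oocytes were matured in vitro in 1 of 3 media, fertilised, cultured to the blastocyst stage and transferred to recipient cows. CONTROL medium held neither added fatty acid nor solvent. BASAL medium held 28 µM stearic acid, 23 µM palmitic acid, 21 µM oleic acid and 0.45% ethanol, and HIGH PA medium was the same but with 150 µM palmitic acid. Each recovered embryo was scored as spherical, ovoid or tubular and dissected into the embryonic disc (ED) and the extraembryonic tissue (EX). The 53 libraries came from 30 embryos of 7 cows and comprised 12 BASAL, 8 HIGH PA and 3 CONTROL discs, 14 BASAL, 10 HIGH PA and 4 CONTROL extraembryonic samples, and 2 undissected HIGH PA embryos. All CONTROL embryos came from 1 cow, which also carried BASAL and HIGH PA embryos, and 6 of the 7 CONTROL libraries were from tubular embryos. Libraries of 1 group came from different embryos, although embryos flushed together shared a uterus.

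WNT proteins are secreted, lipid-modified ligands that bind a Frizzled receptor together with the co-receptors LRP5 or LRP6. In the canonical branch this stabilises β-catenin, the product of CTNNB1, which acts with TCF and LEF factors on target genes such as AXIN2, while R-spondins strengthen the signal through LGR receptors and secreted antagonists bind the ligands (SFRP and WIF1 proteins) or the co-receptors (DKK1). In mammalian embryos the pathway is known for patterning the disc at gastrulation, when the primitive streak forms, and antagonists made by the hypoblast limit it on the anterior side. Spherical, ovoid and tubular are successive shapes of the ruminant conceptus as its trophectoderm elongates.

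The 22 disc libraries used for levels held between 119116 and 6167850 exon reads, and the 27 extraembryonic ones between 340016 and 19533821. 2 further libraries, disc BASAL 7 and extraembryonic BASAL 7, held under 10000 reads each and are left out of the levels given here. Levels are exon read counts scaled to a library total of 1000000 (CPM), and levels of different genes are compared per kilobase of exon. Of 12 epiblast marker genes 6 were measured, and their summed level had a median of 214.2 CPM in discs and 58.6 CPM in extraembryonic tissue. The 12 trophectoderm markers summed to a median of 14896 CPM in discs and 20719 CPM in extraembryonic tissue, so trophectoderm markers were abundant in the disc libraries too. Disc BASAL 12 had 0 reads of SOX2, NODAL and EOMES, which goes against its label. It stays in its group, and for some results the values without it are given as well. The column names of 7 extraembryonic libraries carried an added mark, "2", whose meaning the sources used here do not give. These 7 libraries had a median mitochondrial share of 10.75% of exon reads, against 4.17% in the other 20, and they included 5 of 9 ovoid but only 1 of 16 tubular samples.

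Reads were found for 51 of the 52 genes, and DKK4 had none in any library. WNT11 and WNT6 were the main ligands. In discs WNT11 (chr15:56384699-56404335 in the UMD3.1 build, as are all positions here) made up a median of 48.2% of the summed WNT level per kilobase and WNT6 (chr2:107544682-107556681) 25.5%. In extraembryonic tissue the order was the other way round, with WNT6 at 55.5% and WNT11 at 13.6%. The WNT11 share was lower in the extraembryonic sample of 21 of 22 embryos, and the WNT6 share was higher in 21 of 22. WNT7A, WNT5B and WNT7B followed, with median shares of 7.70%, 6.99% and 2.42% in discs and of 12.8%, 3.72% and 5.43% in extraembryonic tissue. Summed over the ligands, the level per kilobase was 126 in discs and 71.1 in extraembryonic tissue.

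**Figure D1:**
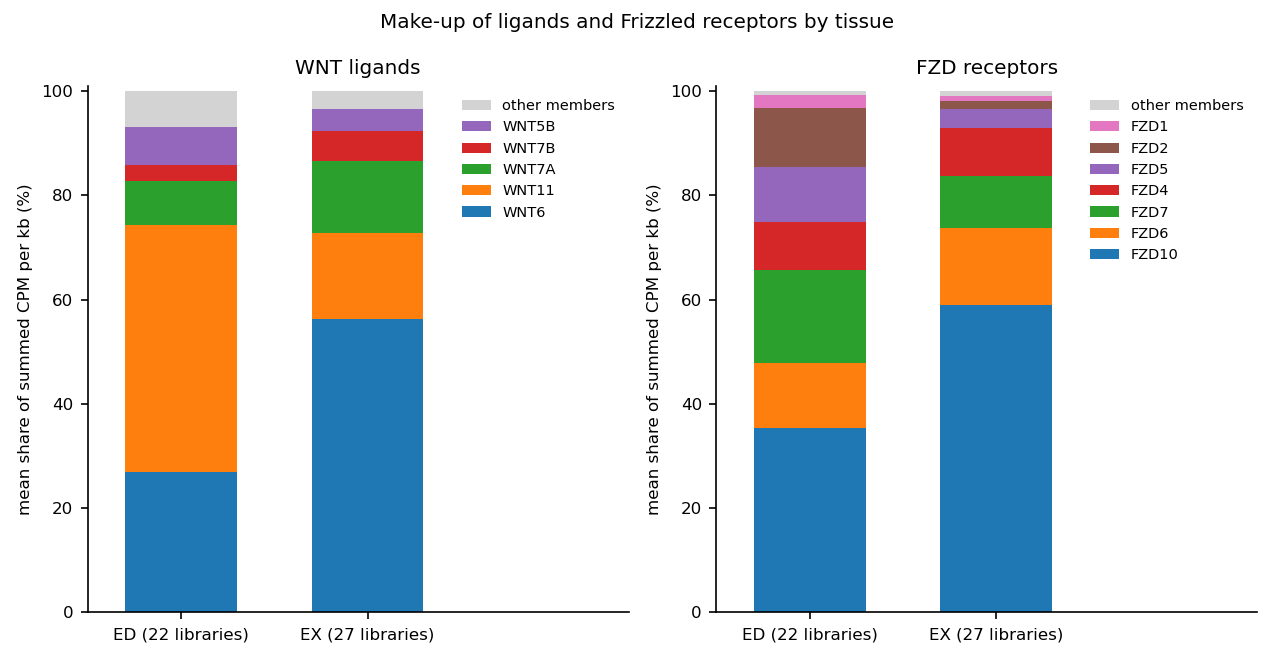
Mean share of each gene in the summed CPM per kilobase of exon of the WNT ligands (left) and Frizzled receptors (right), as stacked bars for 22 disc (ED) and 27 extraembryonic (EX) libraries; genes with a mean share under 2% in both tissues are drawn together in grey. WNT11 takes the largest share of the ligands in discs and WNT6 in extraembryonic tissue, and the FZD10 share is larger in extraembryonic tissue.

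Among the Frizzled receptors, FZD10 (chr17:47935476-47937432) led in both tissues, with a median of 34.7% of the summed Frizzled level per kilobase in discs and 55.9% in extraembryonic tissue. In discs it was followed by FZD7 at 17.6%, FZD5 at 12.0%, FZD6 at 11.7% and FZD2 at 11.2%. In extraembryonic tissue FZD6 at 15.8%, FZD7 at 9.68% and FZD4 at 9.09% came next, and FZD2 made up 1.19%. The R-spondin signal was almost all RSPO3, at a median of 100% of the family in either tissue. SFRP1 provided 66.7% of the summed antagonist level in discs, whereas DKK1 provided 86.2% in extraembryonic tissue. That sum was 28.5 CPM per kilobase in discs and 1.40 in extraembryonic tissue, lower in the extraembryonic sample of 22 of 22 embryos. TCF7L1, a TCF factor known mainly as a repressor, made up 81.5% of the measured TCF and LEF level in discs and 98% in extraembryonic tissue.

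Discs and extraembryonic tissue were first compared within embryos, over the 23 embryos with both parts sequenced. Most of the ligands, receptors and antagonists with enough reads for a test were lower in extraembryonic tissue, and WNT6, WNT7B and FZD10 were higher. Of the 52 genes, 36 had enough reads for the test, and 27 of these were called at an adjusted p under 0.05 (edgeR's quasi-likelihood test with Benjamini-Hochberg adjustment over 12291 features), 3 higher and 24 lower in extraembryonic tissue. Of all tested features 55.5% were called, 23.8% higher and 31.7% lower. The median log2 fold change was -1.53 over the 36 genes and -0.02 over all tested features. A gene that passes the filter on low counts through its reads in one tissue only is likely to differ, so the counts and medians describe the genes that passed and not the family. In these bulk libraries, fewer cells of a type and less RNA per cell cannot be told apart.

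**Figure D2:**
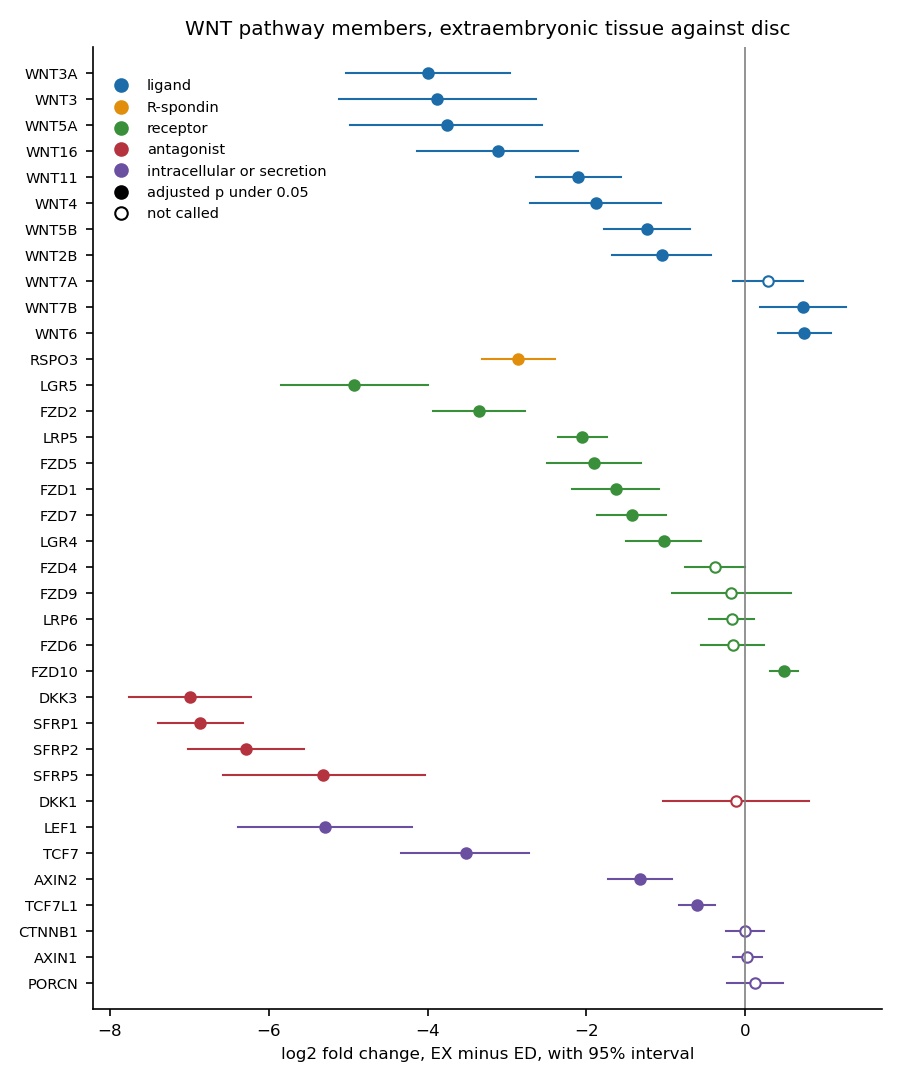
Log2 fold change of the 36 tested genes, extraembryonic tissue minus disc (x axis), with 95% intervals from the paired fit over 23 embryos; filled points have an adjusted p under 0.05 and colours give the role. 24 filled points lie below 0 and 3 above it, and the 4 antagonists DKK3, SFRP1, SFRP2 and SFRP5 lie below -5.

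Markers of cell layers moved with the same comparison. All 6 tested epiblast markers and all 11 tested hypoblast and yolk sac markers were lower in extraembryonic tissue. Of 11 streak and mesoderm markers 9 were lower and 1 higher, and of 12 trophectoderm markers 8 were higher and 0 lower. Over all tested features 31.7% were lower and 23.8% higher. The summed epiblast level ranged from 66.0 to 457.8 CPM in discs (from 103.7 CPM without disc BASAL 12) and from 8.87 to 120.6 CPM in extraembryonic tissue, and the summed hypoblast level from 556.8 (655.6 without that disc) to 3323 and from 329.4 to 1453 CPM. The streak marker T had no reads in any extraembryonic library, and the yolk sac marker TTR none in either tissue. Their part in the WNT pathway results was not tested.

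Of the ligands, 11 of 19 were tested, with 2 higher and 8 lower in extraembryonic tissue, where 23.8% and 31.7% of all tested features were. WNT11, a ligand of the non-canonical branch in many settings, had from 23.2 to 219.4 CPM in discs with a median of 134.1, and from 0 to 67.96 CPM in extraembryonic tissue with a median of 19.04. It fell by 2.10 on the log2 scale in extraembryonic tissue (SE 0.26, adjusted p 7.39e-08) and was lower in 20 of 22 embryos. The ranges overlapped, but 14 of 27 extraembryonic libraries lay below every disc, or 19 without disc BASAL 12. WNT3A, a classical canonical ligand linked to the streak, was low throughout, with a median of 0.795 CPM in discs and of 0 in extraembryonic tissue, where 17 of 27 libraries had no read. It fell by 3.99 on the log2 scale (SE 0.50, adjusted p 3.29e-07). WNT16 ranged from 0 to 6.33 CPM in discs with a median of 0.827 and from 0 to 0.533 CPM in extraembryonic tissue with a median of 0, and fell by 3.11 (SE 0.50, adjusted p 5.48e-06). Both tissues held libraries without a WNT16 read.

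WNT3, WNT5A, WNT4, WNT5B and WNT2B also fell, by 3.88, 3.76, 1.88, 1.24 and 1.05 on the log2 scale. WNT3, needed for streak formation in the mouse, had 40 reads in all discs together and 9 in all extraembryonic libraries. WNT5B (median 9.74 CPM in discs and 2.5 in extraembryonic tissue) had the most reads of these 5. WNT5B was not called in HIGH PA or ovoid embryos alone, and WNT2B not in BASAL, HIGH PA or ovoid embryos alone. WNT6 went the other way. It had from 5.92 to 63.2 CPM in discs with a median of 34.6 and from 30.5 to 82.3 CPM in extraembryonic tissue with a median of 45.4. The ranges overlapped widely, and WNT6 was higher in the extraembryonic part of 16 of 22 embryos (log2 fold change 0.74, SE 0.16, adjusted p 2.86e-04). In CONTROL embryos alone WNT6 was not called. WNT7B was higher in 15 of 22 embryos (log2 fold change 0.73, SE 0.27, adjusted p 0.0202), with medians of 2.18 CPM in discs and 2.92 in extraembryonic tissue. It was not called in BASAL, HIGH PA or ovoid embryos alone. WNT7A, known from epithelia of the reproductive tract among others, had medians of 10.1 and 9.73 CPM and was not called (log2 fold change 0.29, 95% interval -0.15 to 0.72).

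**Figure D3:**
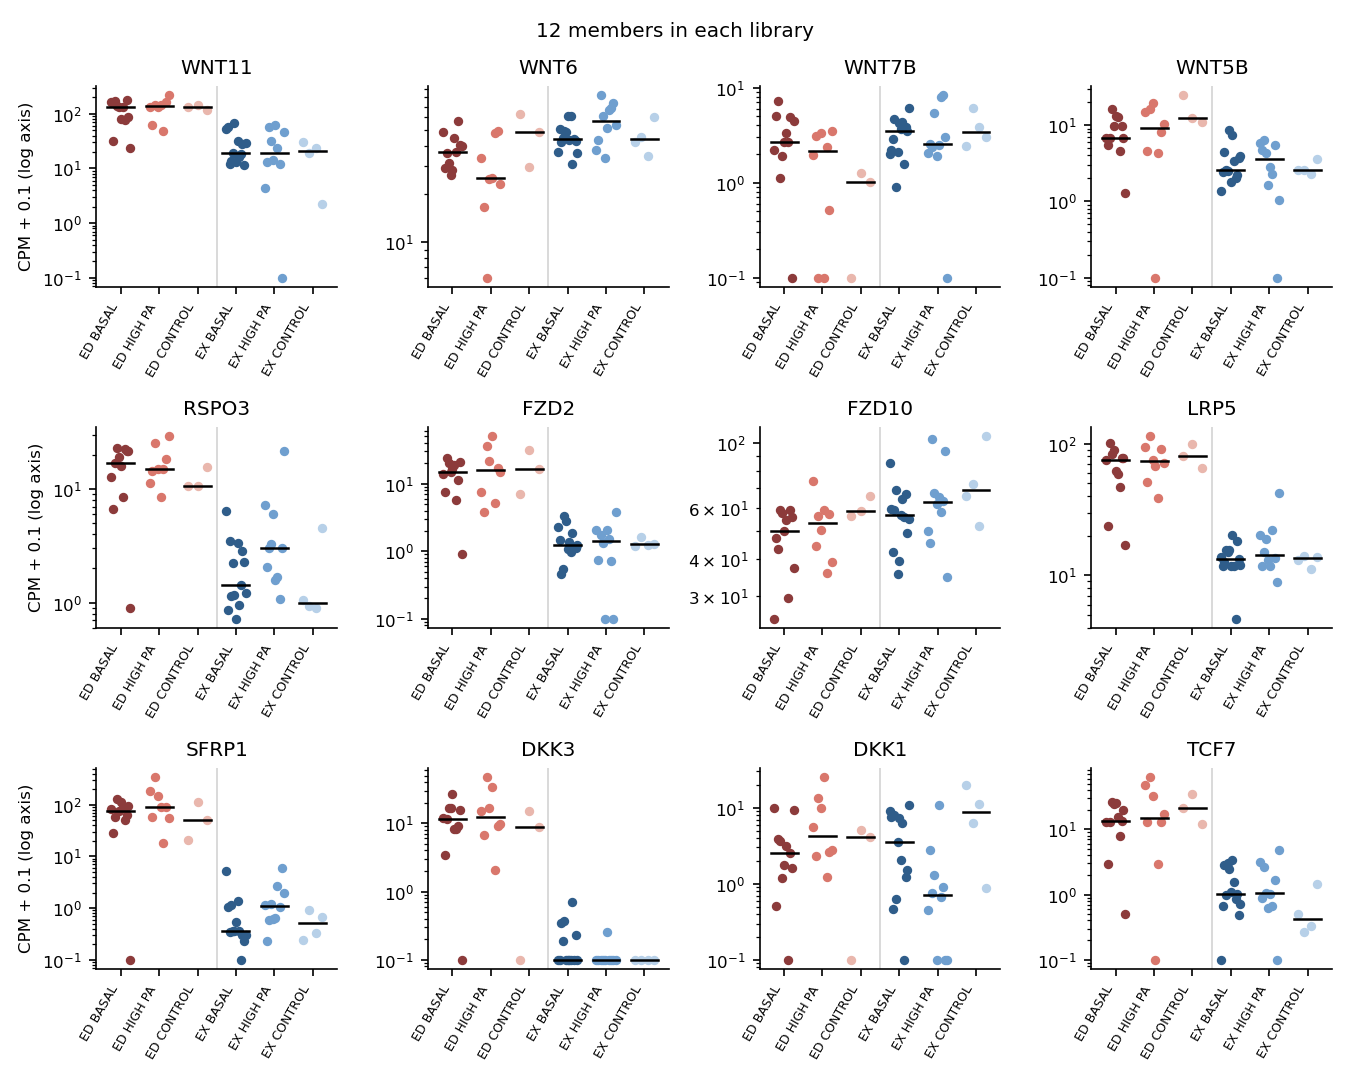
Levels of 12 genes (y axis, log scale, CPM with 0.1 added), drawn as 1 point per library with at least 10000 reads, by tissue and medium; bars are group medians. SFRP1, DKK3, LRP5, FZD2 and RSPO3 sit higher in the disc groups than in the extraembryonic groups, WNT6 and FZD10 somewhat lower, and the single low disc BASAL point in several panels is disc BASAL 12.

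The other 8 ligands had too few reads to be tested. WNT8A, which acts early in posterior patterning in vertebrates, had 24 reads in 8 of 22 discs and none in 27 extraembryonic libraries, which is at least 31.4-fold higher in discs when 3 counts over all extraembryonic libraries are taken as the floor (0.0144 CPM, counting error only). WNT10A had 31 reads in discs and 91 in extraembryonic tissue, at medians of 0.408 and 0.412 CPM. It lies 7339 bases from WNT6, which had 12693 reads against 123 of WNT10A. WNT9B had 12 and 44 reads. WNT1, WNT2, WNT8B, WNT9A and WNT10B had at most 10 reads each over all libraries.

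RSPO3, the R-spondin of these embryos, fell by 2.86 on the log2 scale in extraembryonic tissue (SE 0.23, adjusted p 6.64e-12). Discs had from 0.800 to 29.1 CPM with a median of 15.3, and extraembryonic libraries from 0.621 to 21.5 CPM with a median of 1.94. It was lower in 21 of 22 embryos, and the exception was the embryo of disc BASAL 12. Without that disc, the lowest disc value was 6.58 CPM. RSPO1 had 28 reads in discs and 1 in extraembryonic tissue, and RSPO2 and RSPO4 had 1 and 5 reads, all in discs.

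Of 13 receptor genes 12 were tested, with 1 higher and 7 lower in extraembryonic tissue, where 23.8% and 31.7% of all tested features were. LRP5, the co-receptor, had from 16.8 to 113.9 CPM in discs with a median of 75.4 and from 4.58 to 42.1 CPM in extraembryonic tissue with a median of 13.5. It fell by 2.05 on the log2 scale (SE 0.15, adjusted p 1.19e-12), in 22 of 22 embryos, and 21 of 27 extraembryonic libraries were below every disc, or 26 without disc BASAL 12. In intron reads the LRP5 difference was smaller (log2 fold change -0.73, SE 0.25, adjusted p 0.0175). Its paralogue LRP6 was not called (medians 27.7 and 22.0 CPM, log2 fold change -0.17, 95% interval -0.46 to 0.11). FZD2 fell by 3.35 (SE 0.28, adjusted p 2.77e-11), from a median of 15.6 CPM in discs (0.800 to 50.4) to 1.17 CPM in extraembryonic tissue (0 to 3.74). Without disc BASAL 12 the lowest disc had 3.75 CPM, just above the highest extraembryonic library. LGR5, an R-spondin receptor and a target gene of the pathway in several tissues, fell by 4.92 (SE 0.45, adjusted p 3.59e-10), from a median of 4.86 CPM (0 to 19.97) to 0.0879 CPM (0 to 2.81). Its intron reads behaved otherwise, with a log2 fold change of 0.26 (SE 0.22), and there were 1611 of them against 26 exon reads in extraembryonic tissue, and 395 against 246 in discs.

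FZD5, FZD1, FZD7 and LGR4 fell by 1.91, 1.63, 1.43 and 1.02 on the log2 scale. LGR4, the more abundant of the LGR receptors, was lower in 22 of 22 embryos, with a median of 31.9 CPM in discs and 18.5 CPM in extraembryonic tissue. In CONTROL embryos alone LGR4 was not called. FZD10 was called higher, with medians of 55.1 and 59.4 CPM, in 16 of 22 embryos (log2 fold change 0.49, SE 0.09, adjusted p 1.61e-05), and its 2 ranges, 24.9 to 73.96 and 34.6 to 105.5 CPM, overlapped for most libraries. In CONTROL or ovoid embryos alone FZD10 was not called. FZD10 has 1 annotated exon and so no annotated intron. The reads counted as its intron reads had a log2 fold change of -0.22 and are no check on the exon result. FZD4, FZD6 and FZD9 were not called, at log2 fold changes of -0.38, -0.16 and -0.18. LGR6 had 11 reads in all and was not tested.

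The 5 tested antagonists, of 9, had a median log2 fold change of -6.29, and 4 of them were called, all lower in extraembryonic tissue. Of all tested features 31.7% were called lower. DKK3, SFRP2 and SFRP5 had 637, 131 and 65 reads in discs against 11, 2 and 0 in extraembryonic tissue. They passed the filter on low counts through their disc reads, so this median is not compared with those of other roles. SFRP1 (chr27:35900361-35943920), a soluble Frizzled-like protein that binds WNT ligands, had from 0 to 342.4 CPM in discs with a median of 79.1 and from 0 to 5.88 CPM in extraembryonic tissue with a median of 0.515. It fell by 6.86 on the log2 scale (SE 0.26, adjusted p 3.12e-19) and was lower in 21 of 22 embryos. The disc with no SFRP1 read was disc BASAL 12, and without it the lowest disc had 18.1 CPM, above every extraembryonic library. DKK3, a divergent member of the Dickkopf family, fell by 6.99 (SE 0.38, adjusted p 9.77e-15), from a median of 10.5 CPM (0 to 47.3) to 0 (0 to 0.591), with 21 of 27 extraembryonic libraries at 0. SFRP2 fell by 6.29 (SE 0.35, adjusted p 4.92e-14), from a median of 1.65 CPM (0 to 17.6) to 0 (0 to 0.0938), and had 2 reads in all extraembryonic libraries together.

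SFRP5, a marker of anterior hypoblast-type endoderm in the mouse, was also called lower. It had 65 reads in 13 of 22 discs and none in extraembryonic tissue, at least 85.1-fold higher in discs against the same floor of 3 counts. DKK1, which blocks LRP5 and LRP6, was not called over all embryos (log2 fold change -0.12, 95% interval -1.04 to 0.80). Its level varied from 0 to 25.2 CPM in discs with a median of 2.88 and from 0 to 19.6 CPM in extraembryonic tissue with a median of 1.40, and it was higher in the extraembryonic part of 11 embryos and lower in the other 11. In the CONTROL embryos alone its log2 fold change was 1.68 (SE 0.47, adjusted p 0.00528), in BASAL embryos alone 0.23 (adjusted p 0.708) and in HIGH PA embryos alone -1.78 (adjusted p 0.145). Whether the value in CONTROL embryos differed from that in the other media was not tested. DKK2, SFRP4 and WIF1 had 15, 2 and 48 reads in all.

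All 7 intracellular and secretion genes were tested, with 0 higher and 4 lower in extraembryonic tissue. Of all tested features 55.5% were called, 23.8% higher and 31.7% lower, so the number called here was near that share. TCF7, which encodes TCF1, fell by 3.52 on the log2 scale (SE 0.40, adjusted p 9.25e-09), from a median of 14.4 CPM in discs (0 to 62.9) to 0.918 CPM (0 to 4.68). In intron reads TCF7 was not called (log2 fold change -0.23, SE 0.29, adjusted p 0.578). LEF1, which often acts as an activating partner of β-catenin, fell by 5.29 (SE 0.52, adjusted p 2.15e-08). It was low in discs, with a median of 0.755 CPM and 9 of 22 libraries at 0, and it had 2 reads in extraembryonic tissue. DESeq2 did not call LEF1 (adjusted p 0.109). AXIN2, a feedback inhibitor and widely used readout of canonical signalling, fell by 1.32 (SE 0.20, adjusted p 1.60e-06). Discs had from 0 to 37.3 CPM with a median of 20.8, extraembryonic libraries from 2.20 to 29.95 CPM with a median of 8.12, and AXIN2 was lower in 20 of 22 embryos.

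TCF7L1 fell by 0.61 (SE 0.11), but was not called in HIGH PA, CONTROL or ovoid embryos alone. CTNNB1, the most abundant gene of the set per kilobase, was level between the tissues at medians of 402.0 and 405.5 CPM (log2 fold change -0.002, 95% interval -0.24 to 0.24). A fit without the embryos of marked libraries, most of them ovoid, left out their discs too and kept 34 of 46 libraries. There CTNNB1 was called higher in extraembryonic tissue (log2 fold change 0.26, SE 0.08, adjusted p 0.00716). AXIN1, the scaffold of the complex that degrades β-catenin, and PORCN, the enzyme that attaches the lipid to WNT ligands, were not called (log2 fold changes 0.03 and 0.12, 95% intervals -0.15 to 0.21 and -0.23 to 0.47).

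The tissue difference held for most genes under the other choices tried, but none of these had the sequencing lane as a term. Most discs were sequenced in lanes 1 and 2, and most extraembryonic samples of the same embryos in lanes 3, 4 and 8. Tissue and lane therefore largely coincide and cannot be told apart here. Without both parts of the embryos with a marked library 28 genes were called (62.2% of features, 29.4% higher and 32.8% lower), and with DESeq2 26 (60.9%, 31.5% higher and 29.4% lower). Without the embryo as a block 22 of 30 tested genes were called (54.4% of features, 25.3% higher and 29% lower), and with intron reads 14 of 22 (34.4%, 18% higher and 16.4% lower). FZD5, FZD7 and FZD10 are among these 22 although each has 1 annotated exon and so no annotated intron. The count was 20 of 31 in BASAL embryos alone (41.5% of features), 20 of 33 in HIGH PA embryos alone (28.6%) and 17 of 28 in CONTROL embryos alone (31.6%). In ovoid embryos alone it was 13 of 28 (21.2%), where WNT11, AXIN2, FZD10 and WNT7B were among those not called.

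Other genes of the pathway were described by 7 further lists, of which only the list of target genes shares members with the set (AXIN2, LEF1, TCF7, LGR5 and DKK1). Of 8 tested further antagonists 6 were lower in extraembryonic tissue and 1 was higher, where 31.7% of all tested features were lower and 23.8% higher. DKKL1, FRZB, SOSTDC1 and CER1 fell, with log2 fold changes of -1.99, -3.02, -3.28 and -7.76, and CER1, secreted by anterior endoderm in the mouse, had no read in extraembryonic tissue. Of 10 tested surface ubiquitin ligases and co-receptors 7 were lower and 2 higher. GPC4 and GPC3, glypicans that carry ligands at the cell surface, fell (log2 fold changes -8.49 and -5.63), as did ROR2 and ROR1, receptors of the WNT5A branch (-6.29 and -2.59). GPC4 had 103 ± 74.7 CPM in discs (SD, n = 22) and 0.830 ± 2.82 in extraembryonic tissue (SD, n = 27).

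Of 18 tested planar polarity and non-canonical genes 7 were lower and 2 higher, with a list median of -0.24. VANGL2 and CELSR2, core components of planar polarity, fell much further than that median (log2 fold changes -6.75 and -5.27). Of 20 tested genes widely reported as β-catenin targets, 15 were lower and 0 higher, among them MSX1 (log2 fold change -4.11), CD44 (-3.93) and CDX4 (-4.67). Of 15 tested nuclear cofactors 8 were lower and 1 higher, with BCL9 at a log2 fold change of -2.09. The destruction complex and Dishevelled list had 5 of 15 lower and 0 higher. Over all tested features 31.7% were lower and 23.8% higher. The lower counts of that list and of the planar polarity list were near the share of all features. Of 7 tested ligand secretion genes 4 were higher and 1 lower. SNX3, TMED10, VPS29 and VPS35, which act in retromer transport or cargo export, rose by 0.34, 0.41, 0.44 and 0.37. Median log2 fold changes were -2.51, -1.54, -0.24, -1.60, -0.25, -0.06 and 0.34 for these 7 lists in the order given, against -0.02 over all tested features.

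The maturation medium came next, with the question whether palmitic acid during oocyte maturation left a difference at day 14. In discs no gene of the set passed the test between any 2 media. HIGH PA against BASAL called 0 of 30 tested genes (0% of 11040 tested features, edgeR's quasi-likelihood test), 1 gene and 1003 features had an unadjusted p under 0.05, and DESeq2 called 2 features (0.0181%, 0.00906% in either direction) and 0 genes of the set. FZD1, which had the lowest p, ranged from 1.69 to 25.2 CPM in HIGH PA with a median of 7.24 and from 1.65 to 11.8 CPM in BASAL with a median of 5.93 (log2 fold change 1.02, 95% interval 0.14 to 1.90, adjusted p 0.513). LGR5 (medians 5.80 and 4.45 CPM) and TCF7 (medians 14.8 and 13.4 CPM) followed, at log2 fold changes of 1.22 (95% interval -0.04 to 2.48) and 1.01 (-0.08 to 2.10). The groups overlapped for all 3. With the cow as a block these log2 fold changes were 0.78 for FZD1, 0.69 for LGR5 and 0.26 for TCF7. Without the embryos of 1 cow (cow07) 97 features (0.886%) and still 0 of 29 genes were called, but 12 genes of the set and 2305 features had an unadjusted p under 0.05. Without disc BASAL 12, 0 features were called, and 2 genes of the set and 660 features had an unadjusted p under 0.05. The intervals of the most abundant genes were narrower, at -0.40 to 0.95 for WNT11, -0.35 to 0.36 for FZD10 and -0.13 to 0.41 for CTNNB1.

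BASAL against CONTROL in discs called 0 of 30 (0% of features, 380 features and 1 gene of the set at an unadjusted p under 0.05, and 0 features by DESeq2). Without disc BASAL 12 it called 0, with 261 features and 1 gene of the set at an unadjusted p under 0.05. WNT7B had 0, 1.17 and 0.920 CPM in the 3 CONTROL discs and from 0 to 7.19 CPM with a median of 2.61 in BASAL discs (log2 fold change 2.11, SE 0.83, adjusted p 1.00), and 9 of 11 BASAL discs lay above the CONTROL discs. WNT5B had 24.6, 12.4 and 10.7 CPM in CONTROL and a median of 6.76 CPM in BASAL (log2 fold change -0.87, SE 0.53), and LGR4 had 35.1, 45.1 and 28.5 CPM in CONTROL and a median of 30.9 CPM in BASAL (-0.36, SE 0.24). LEF1 had the same p as LGR4 (log2 fold change -1.82, SE 1.2). CONTROL disc 1 held 284848 reads, at which 1 read is 3.51 CPM, so its value of 0 for WNT7B carries little weight. HIGH PA against CONTROL in discs called 0 of 30 (0% of features, 465 features and 0 genes of the set at an unadjusted p under 0.05, and 0 features by DESeq2). The lowest p were those of WNT6 (63.2, 29.1 and 48.5 CPM in CONTROL against a median of 24.95 CPM, log2 fold change -0.60, SE 0.38), FZD6 (10.5, 19.04 and 23.9 against 25.8 CPM, 0.38, SE 0.25) and TCF7L1 (31.6, 28.8 and 31.3 against 34.8 CPM, 0.48, SE 0.33).

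**Figure D4:**
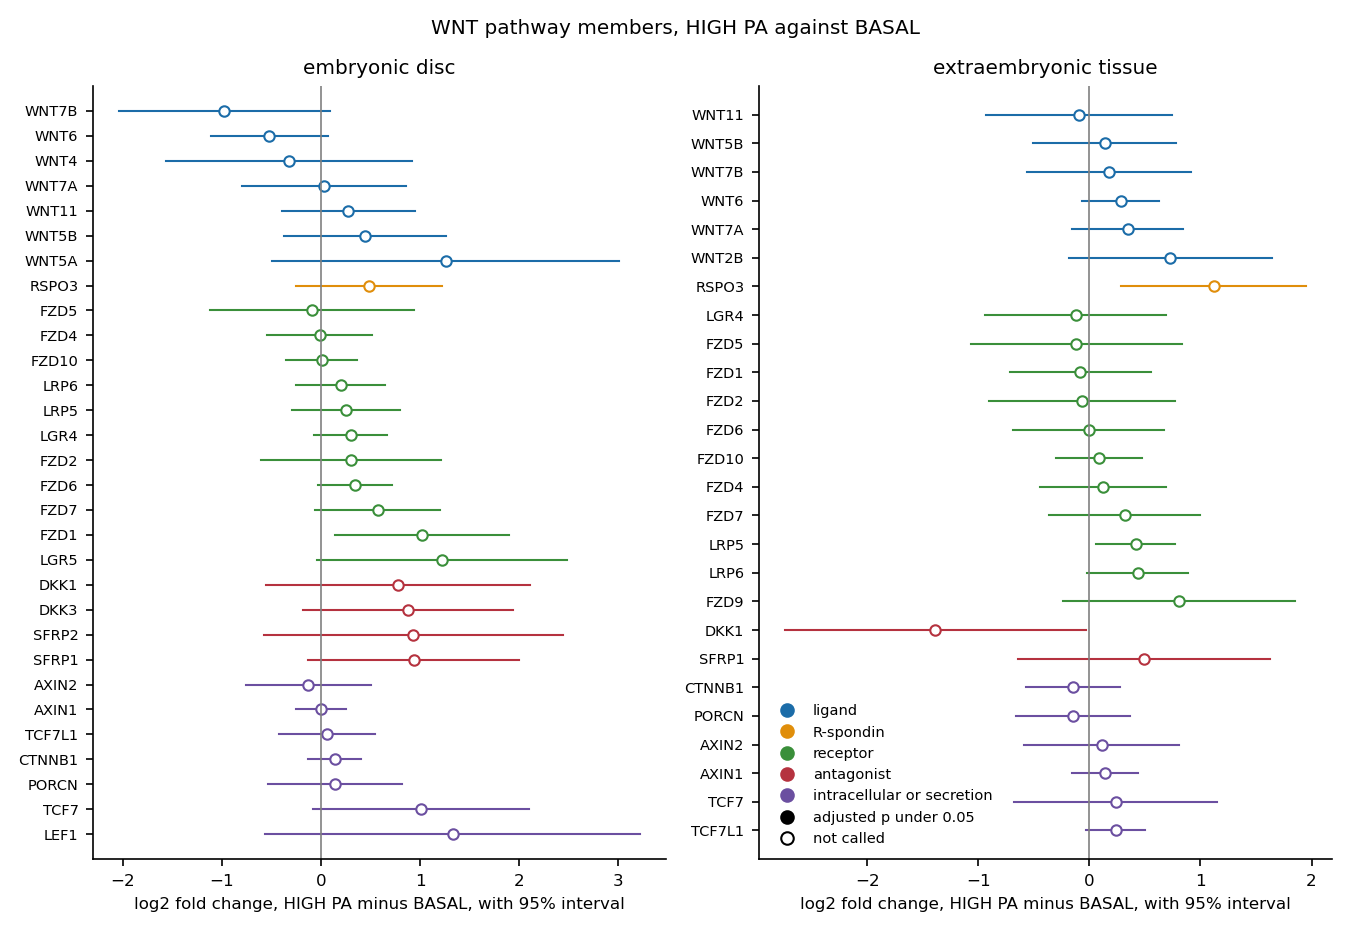
Log2 fold change of HIGH PA minus BASAL (x axis) with 95% intervals for the 30 genes tested in discs (left) and the 26 tested in extraembryonic tissue (right); colours give the role and open points are genes that were not called. No point is filled, and the intervals of RSPO3, LRP5 and DKK1 in extraembryonic tissue and of FZD1 in discs exclude 0 before adjustment over all features.

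In extraembryonic tissue, too, no gene of the set passed. HIGH PA against BASAL called 0 of 26 tested genes (0% of 11114 features, 551 features and 3 genes of the set at an unadjusted p under 0.05, and 0 features by DESeq2). RSPO3 ranged from 0.973 to 21.5 CPM in HIGH PA with a median of 2.92 and from 0.621 to 6.31 CPM in BASAL with a median of 1.33 (log2 fold change 1.12, SE 0.41, adjusted p 0.839). The highest value was that of a spherical embryo, and a spherical embryo without a determined sex was not in the fit. LRP5 had medians of 14.1 and 13.3 CPM (log2 fold change 0.42, SE 0.18, adjusted p 0.966). DKK1 had medians of 0.604 and 3.46 CPM (log2 fold change -1.39, SE 0.66, adjusted p 0.992), and 3 of 10 HIGH PA libraries and 1 of 13 BASAL libraries had no DKK1 read. All groups overlapped.

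BASAL against CONTROL in extraembryonic tissue called 0 of 26 (0% of features, 375 features and 2 genes of the set at an unadjusted p under 0.05, and 1 feature by DESeq2). AXIN1 had 52.9, 51.4, 48.9 and 58.9 CPM in the 4 CONTROL libraries and from 59.7 to 108.3 CPM in BASAL with a median of 66.9. The 2 groups did not overlap, but the difference was not called (log2 fold change 0.52, SE 0.19, adjusted p 0.885), and with the recipient cow as a block AXIN1 stood at 0.21 (SE 0.20). TCF7 had 0.412, 0.167, 0.230 and 1.36 CPM in CONTROL and a median of 0.918 CPM in BASAL (1.43, SE 0.68), and PORCN had 4.12, 7.68, 5.17 and 4.08 CPM and a median of 5.94 CPM (0.59, SE 0.33). HIGH PA against CONTROL called 0 of 26 (0% of features, 1075 features and 6 genes of the set at an unadjusted p under 0.05, and 1 feature by DESeq2). AXIN1 again had the lowest p (HIGH PA median 81.3 CPM, log2 fold change 0.66, SE 0.20, adjusted p 0.477), and 9 of 10 HIGH PA libraries lay above all CONTROL libraries. With the cow as a block AXIN1 stood at 0.39 (SE 0.22). DKK1 had 19.6, 6.18, 11.3 and 0.777 CPM in CONTROL against a HIGH PA median of 0.604 CPM (log2 fold change -1.99, SE 0.78, adjusted p 0.477), and RSPO3 had 0.960, 0.835, 0.804 and 4.47 CPM (1.43, SE 0.60). The CONTROL library with the low DKK1 and the high RSPO3 was the only ovoid one. HIGH PA and BASAL share these CONTROL libraries, so the 2 comparisons with CONTROL are not independent.

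The difference between media was also compared between the tissues, in 1 fit over both parts of each embryo. The interaction of tissue with HIGH PA called 0 of 36 genes (0% of 12291 features, 382 features and 3 genes of the set at an unadjusted p under 0.05, and 0 features by DESeq2). WNT7B, DKK1 and WNT6 had the lowest p, with interaction terms of 1.61 (SE 0.58), -2.52 (SE 0.96) and 0.90 (SE 0.36) on the log2 scale and adjusted p of 1.00 each.

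Shape was compared with medium and sex in the fit. In discs 0 of 30 genes passed between 8 ovoid and 15 tubular embryos (0% of 11040 features, 806 features and 3 genes of the set at an unadjusted p under 0.05, and 17 features but 0 genes of the set by DESeq2, 0.154% in all, 0.0453% higher and 0.109% lower). WNT5A, a non-canonical ligand needed for axis extension in the mouse, had no read in 6 of 8 ovoid discs, where it ranged up to 0.845 CPM. In 14 tubular discs it ranged from 0 to 15.5 CPM with a median of 0.898, and 3 had no read (log2 fold change -3.19, SE 0.93, adjusted p 0.456). WNT11 had a median of 110.0 CPM in ovoid (23.2 to 161.7) and 136.3 CPM in tubular discs (47.96 to 219.4), and WNT5B of 6.03 (0 to 14.8) and 11.6 CPM (4.23 to 24.6). Their log2 fold changes of -0.64 (SE 0.29) and -0.72 (SE 0.35) turned to 0.33 and 0.09 when the recipient cow was a term. WNT5A went to -1.66 (SE 1.37) with the cow as a term. The lowest WNT11 value was that of disc BASAL 12, an ovoid embryo. Without that disc WNT11 stood at -0.47 and WNT5B at -0.55, and 1 gene of the set, in place of 3, had an unadjusted p under 0.05.

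In extraembryonic tissue 4 of 29 tested genes were called between ovoid and tubular embryos, 2 higher and 2 lower in ovoid, where 11.4% of 11880 tested features were called, 5.94% higher and 5.41% lower (edgeR's quasi-likelihood test). The share of the set called, 13.8%, was near that of all features. AXIN2 (chr19:62834849-62860774) and TCF7 were higher in ovoid samples, and CTNNB1 and the receptor FZD5 were lower. AXIN2 had from 6.63 to 19.7 CPM in 9 ovoid samples with a median of 9.84 and from 2.20 to 12.3 CPM in 16 tubular samples with a median of 5.69 (log2 fold change 1.01, SE 0.22, adjusted p 0.00993). The 2 spherical samples, HIGH PA 9 and HIGH PA 10, had 29.4 and 29.95 CPM, above every ovoid and tubular sample. These values rest on 10 and 32 reads in the 2 shallowest extraembryonic libraries used for levels (340016 and 1068407 reads). HIGH PA 10 also carries the name mark, so shape cannot be told apart from depth or mark here. TCF7 had from 0.515 to 3.22 CPM in ovoid with a median of 2.39 and from 0 to 2.78 CPM in tubular with a median of 0.677 (log2 fold change 1.13, SE 0.36, adjusted p 0.0456), and the spherical samples had 0 and 4.68 CPM. Without extraembryonic BASAL 7, the library under 10000 reads, TCF7 was not called (adjusted p 0.0572).

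**Figure D5:**
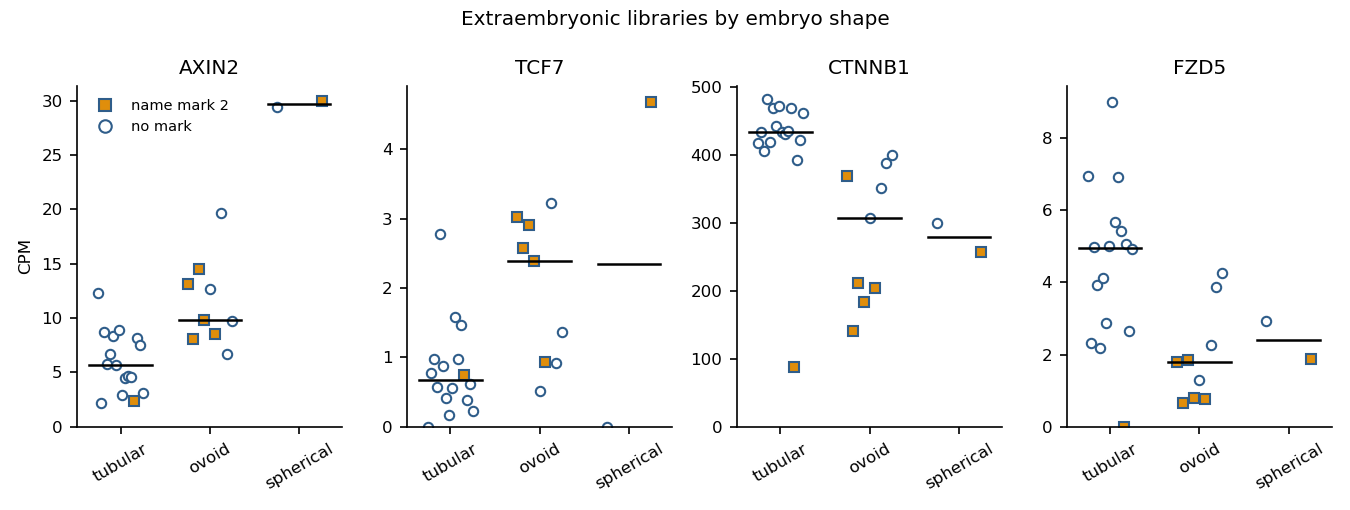
CPM of AXIN2, TCF7, CTNNB1 and FZD5 in each extraembryonic library with at least 10000 reads (y axes start at 0), by embryo shape; bars are medians and orange squares are the 7 libraries whose column name carries the mark 2. Among unmarked libraries AXIN2 lies mostly higher in ovoid than in tubular samples, but the groups overlap and the difference was not called. Only 1 tubular library is marked, and it lies below the marked ovoid ones for AXIN2. The lowest CTNNB1 and FZD5 values are mostly those of marked libraries.

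CTNNB1 had from 141.3 to 399.8 CPM in ovoid samples with a median of 307.2 and from 87.4 to 481.5 CPM in tubular samples with a median of 433.0 (log2 fold change -0.58, SE 0.18, adjusted p 0.0380). The lowest tubular sample was the only marked one, and the 15 unmarked tubular samples had at least 391.7 CPM. Ovoid samples had a CTNNB1 median of 369.7 CPM without the mark and 203.4 CPM with it. FZD5 had from 0.645 to 4.28 CPM in ovoid samples with a median of 1.78 and from 0 to 9.003 CPM in tubular samples with a median of 4.96 (log2 fold change -1.34, SE 0.41, adjusted p 0.0393).

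These 4 calls did not stand when the name mark was taken into account. Without the marked libraries 0 genes of the set were called (190 of 11188 features, 1.7%, with 9 genes of the set at an unadjusted p under 0.05), and with the mark as a term 0 (21 features, 0.177%, with 4 genes). AXIN2 stood at 1.00 without the marked libraries (SE 0.30, adjusted p 0.0720) and at 1.08 with the mark as a term (SE 0.27, adjusted p 0.0671), neither of them called. CTNNB1 went from -0.58 to -0.36 and -0.17, and FZD5 from -1.34 to -0.88 and -0.48. With the recipient cow as a block, or the sequencing lane as a term, 0 were called, and AXIN2 stood at 1.23 (adjusted p 0.240) and 0.62 (adjusted p 0.164). In males alone 9 were called, where 41.5% of 10921 features were. All marked samples of males were ovoid, since the only marked tubular sample came from a female. The fit in males therefore cannot tell shape and mark apart for those samples.

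Of 17 tested β-catenin target genes, 5 were higher and 0 lower in ovoid extraembryonic tissue in the fit with medium and sex, where 5.94% of all features were higher, among them MSX1 (log2 fold change 1.77), APCDD1 (0.90) and MYC (0.51) beside AXIN2 and TCF7 of the set. The trophectoderm markers IFNT2, which encodes the pregnancy recognition signal interferon tau, and PPARG fell by 1.14 and 1.33 in ovoid samples. GATA2, ELF5 and ELF3 of the same list rose, as did 4 of 10 tested hypoblast markers. Summed over the hypoblast list, ovoid and tubular samples had medians of 698.9 and 708.3 CPM, and ovoid samples 809.8 CPM with the mark and 582.1 CPM without it. Their part in the result was not tested. With the cow as a block or the lane as a term 0 of 11880 features were called, so none of these calls of targets and markers stood there.

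Whether the shape difference itself differed between tissues was tested with an interaction term, which called 0 of 36 genes (0% of 12291 features, 1746 features and 9 genes of the set at an unadjusted p under 0.05). An unadjusted p under 0.05 was reached by 492 features and 2 genes of the set without the embryos of marked libraries. Without the embryo of disc BASAL 12 it was reached by 926 features and 6 genes. DESeq2 called 65 features (0.529%, 0.464% higher and 0.0651% lower) and 1 gene of the set, RSPO3. RSPO3 had the lowest p, with an interaction term of 1.51 (SE 0.40, adjusted p 0.152 in edgeR's quasi-likelihood test and 0.0491 in DESeq2). Its medians were 12.7 CPM in ovoid and 15.7 CPM in tubular discs, and 2.90 and 1.09 CPM in ovoid and tubular extraembryonic tissue. WNT5A and FZD6 followed, with terms of 4.29 (SE 1.41) and -1.0 (SE 0.38), and AXIN2 had a term of 0.99 (SE 0.40, adjusted p 0.293).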

How the data were processed

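The authors deposited 1 table with, per library and feature, a count of exon reads, a count of uniquely placed exon reads and a count of intron reads, with coordinates per the file headers. Per the labels' protocols, TruSeq stranded mRNA libraries were sequenced as paired reads of 50 bases, 12 samples per lane. The submitters' processing notes name the build UMD3.1 and DESeq2 1.10.1. The aligner, and whether counting used strand, were not given in the sources used here. Members and lists were chosen with earlier results of these data known.

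The deposited exon counts were tested with edgeR 4.0.16 (limma 3.58.1, R 4.3.3; quasi-likelihood test, filterByExpr, TMM scaling), with Benjamini-Hochberg adjustment over all tested features and a threshold of 0.05. The SE was derived from the F statistic and the log2 fold change, and 95% intervals use the t quantile of the fit. Tissues were compared with the embryo as a block, over 46 libraries of 23 embryos. Own-embryo pairs had a median correlation of deviations of 0.196 (16 of 22 above 0.1), against -0.0184 for other pairs of 1 medium (17 of 172 above 0.1). Media were fitted with sex, and shapes with medium and sex. The spherical extraembryonic sample HIGH PA 9, without a determined sex, was not in those fits. The 2 libraries under 10000 reads stayed in the fits. Alternatives were DESeq2 1.42.0, other scaling, no filter, uniquely placed reads, other blocks, subsets of embryos and leaving out libraries. Alternatives on the name mark, the lane and intron reads were added after seeing the data. Named genes were every called gene of the set, with values for the 3 of lowest p per role between tissues, the 3 of lowest p where 0 were called, and at most 4 called genes of a wider list. DKK1, CTNNB1 and other genes of the set that were not called are named so that each gene is accounted for. Scripts were tested on simulated data. Floors cover counting error only. Figures were drawn with matplotlib 3.10.9.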

Additional observations from a re-analysis of the deposited data

Results flagged for a closer look

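Within each group of 4 to 10 libraries the highest and lowest library were compared with the rest, in 82 groups of a gene and a medium. In 14 of them 1 library lay far from the others by Dixon's criterion, which chance alone does for about 1 in 20 groups. 5 were in the spherical extraembryonic sample HIGH PA 10, which held 21.5 CPM of RSPO3 (the others at most 7.11), 42.1 of LRP5 (22.0), 75.8 of LRP6 (44), 4.68 of FZD9 (2.09) and 3.74 of FZD2 (1.96). That library carries the name mark and held 1068407 reads, and its FZD9 and FZD2 values rest on 5 and 4 reads. The other spherical extraembryonic sample, HIGH PA 9, held 20.6 CPM of WNT2B (the others at most 3.74) and 5.88 of SFRP1 (2.63), which at its 340016 reads rest on 7 and 2 reads. The only ovoid CONTROL sample, extraembryonic CONTROL 4, held 4.47 CPM of RSPO3 and 2.53 of WNT2B, where the other 3 had at most 0.960 and 0.549, and CONTROL 2 held 1.5 CPM of FZD2 where the others had 1.1 to 1.17. In extraembryonic tissue DKK1 was at 10.6 CPM in HIGH PA 6 and at most 2.72 in the other HIGH PA samples. In discs, HIGH PA 1 held 116 CPM of AXIN1 (the others 75.4 to 85.1), and HIGH PA 3 held 584 CPM of CTNNB1 (374 to 437) and 15.5 of WNT5A (at most 4.24).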

How the results depend on the processing

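Between tissues, 512 recomputed values kept their direction and side of the threshold, 20 lost the call, 2 gained it and 32 turned. The count of 27 called genes became 17 of 28 in CONTROL embryos alone (31.6% of features called), 13 of 28 in ovoid embryos alone (21.2%) and 14 of 22 with intron reads (34.4%), was 22 without the replicate block, and ranged from 26 to 27 with a CONTROL disc left out. With intron reads LGR5 was at 0.256, FZD10 at -0.22, LRP6 at 0.00292 and PORCN at -0.541, TCF7 lost its call (-0.231) and LRP5 went from -2.05 to -0.732. The FZD10 value is no check, since the gene has 1 annotated exon and so no annotated intron. WNT7A was at -0.147 in ovoid embryos alone. FZD6 was at 0.0374 without the replicate block, 0.595 in CONTROL, 0.211 in tubular and 0.244 in unmarked libraries. In CONTROL, tubular and unmarked libraries PORCN was at -0.0699, -0.00558 and -0.111 and AXIN1 at -0.406, -0.0739 and -0.0997. DKK1 was at 0.0689 without the block, 0.228 in BASAL, 1.68 in CONTROL, 0.0926 in tubular and 0.184 in unmarked libraries. CTNNB1, at -0.00221, was at 0.0763 with DESeq2, 0.0755 with DESeq2 size factors, 0.0282 without the filter, 0.00253 with uniquely placed reads, 0.0172 without the shallow libraries, 0.0374 without disc BASAL 12, 0.0437 without the block, 0.0109 in BASAL, 0.371 in CONTROL, 0.194 in tubular and 0.257 in unmarked libraries, and from -0.043 to 0.00535 with a CONTROL disc left out. The causes were not tested.

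Media gave 0 called genes of the set under every alternative run. In discs, the shape values of WNT11 and WNT5B turned to 0.332 and 0.0862 with the cow as a replicate block. In extraembryonic tissue the 4 genes called by shape became 0 with the cow as a replicate block, in BASAL or HIGH PA embryos alone, with lane or name mark as a term and without marked libraries. The count was 9 in males alone (41.5% of features), where every marked sample was ovoid. With DESeq2 the interaction of tissue and shape called 1 gene in place of 0. Genes under about 1 CPM in discs rest on few reads in the shallow disc libraries.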

Other observations

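The 2 HIGH PA embryos sequenced without dissection, 1 spherical and 1 ovoid, are in no comparison. AXIN2 stood at 43.3 CPM in the spherical and 11.8 CPM in the ovoid one, against a highest value of 37.3 CPM among discs. WNT6 made up 54.0% and 60.6% of their summed ligand level per kilobase and WNT11 15.5% and 7.84%, and FZD9 stood at 5.68 and 0.956 CPM. DKK3 had 2.84 and 1.27 CPM, above the highest extraembryonic library at 0.591 CPM, while SFRP1 had 1.42 and 0 CPM and LEF1, SFRP2 and SFRP5 had no read. Of 11 measured streak and mesoderm markers, 5 had no read in the spherical and 6 in the ovoid embryo. T, FGF8 and GSC were those without a read in both. The 11 markers summed to 53.3 CPM in the spherical and 62.8 CPM in the ovoid embryo. Of 6 measured epiblast markers, 1 had no read in the spherical embryo, and all had reads in the ovoid one.

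Disc BASAL 12, with 2500029 reads but none of SFRP1, DKK3, SFRP2, SFRP5 or LEF1, had 0.800 CPM each of RSPO3 and FZD2 and 0.400 CPM of TCF7. Its LRP5 of 16.8 CPM and WNT11 of 23.2 CPM were the lowest among discs, and the extraembryonic sample of the same embryo had 15.6 CPM of LRP5 and 67.96 CPM of WNT11.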
